A study of Homo sapiens with 4 samples.

Results

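HUT78 is an established human line of malignant T cells from Sézary syndrome, a cutaneous T-cell lymphoma in which such cells also circulate in blood. Gene expression of these cells without treatment was described from the 2 untreated arrays among 4 in the series. They were chosen by their labels (samples marked as untreated controls, replicates 1 and 2). The cells grew in serum-containing IMDM with no agent, and total RNA was read on Affymetrix whole-transcript arrays. The other 2 arrays, from cells given the compound CSH71 at 250 nM for 30 h, were not used. Both untreated samples come from 1 line, and the labels do not say whether they were separate cultures, so the spread between them may be technical. No groups were compared, and no test was run: the values below are a description of 14884 named genes, each represented by its brightest probe set.

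A mature T cell is known by its antigen receptor, whose CD3 and zeta chains carry the signal inwards, by the co-receptor CD4 or CD8, and by kinases and adaptors that pass the signal to NF-κB, MAP kinases and calcium. Malignant cells of Sézary syndrome are usually CD4-bearing memory cells that home to skin through the chemokine receptor CCR4, and they often lose the surface antigens CD7 and CD26. Cell lines grown from them divide without antigen.

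The measurement is an intensity per probe set on a linear scale, and the pairs of values below give replicate 1 and then replicate 2. Median gene intensity was 142.6 on replicate 1 and 136.0 on replicate 2. The deposited values carry no detection call, so a reference level was taken from 84 genes of keratin-associated proteins and beta-defensins, products of hair and epithelium that are not known from T cells. A gene was called above the reference where it exceeded the 95th percentile of these genes on each array, which was 200.5 on replicate 1 and 157.1 on replicate 2. This held for 6077 of 14884 genes (40.8%), while 7802 (52.4%) lay at or below it on both arrays and 1005 lay on different sides. A gene was called bright where it stood in the highest 10% on each array, above 1103 on replicate 1 and 1198 on replicate 2, which held for 1411 genes (9.48%). Among the 11916 protein-coding genes, the fitting background for most lists below, 47.8% were above the reference and 11.5% were bright.

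Probe sets differ in how well they bind, so the order of genes is an order of array brightness and not of RNA abundance. A dim probe set does not show that a gene is silent. Polyubiquitin UBB, which every cell uses, read 70.8 and 127, and the ribosomal protein genes RPS7, RPS26 and RPL37A read 191 and 210.3, 187 and 290.0 and 185 and 213. UBB was below the reference on both arrays, and the ribosomal genes were on different sides of it. The genes nearest to the limit were KRTAP9-2 (200.5 and 160.4) and MORN3 (251 and 157) just inside it, and FFAR1 (200.5 and 167) and TMEM190 (200.4 and 202) just outside. KRTAP9-2 is itself a reference gene.

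Ribosomal protein genes were the most frequent among the brightest named genes of untreated HUT78. RPS15, a protein of the small ribosomal subunit, ranked first at 11346 and 11508. It was followed by the elongation factor EEF2 at 9401 and 10136 and the ribosomal protein gene RPL41 at 9169 and 9002. Of the 20 brightest genes, 8 encode cytosolic ribosomal proteins. The others include XRCC5, the Ku80 subunit of DNA end joining (8363 and 8595), and LCP1, the leukocyte actin-bundling protein L-plastin (7587 and 8373). BCL2L1, which encodes the anti-apoptotic protein BCL-XL, ranked 14 at 6979 and 7257. TOP2A, the topoisomerase of dividing cells, ranked 19 at 6447 and 6536. All of the 100 brightest genes were in the highest 10% on both arrays, and 59 of them belonged to none of the lists described here.

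**Figure D1:**
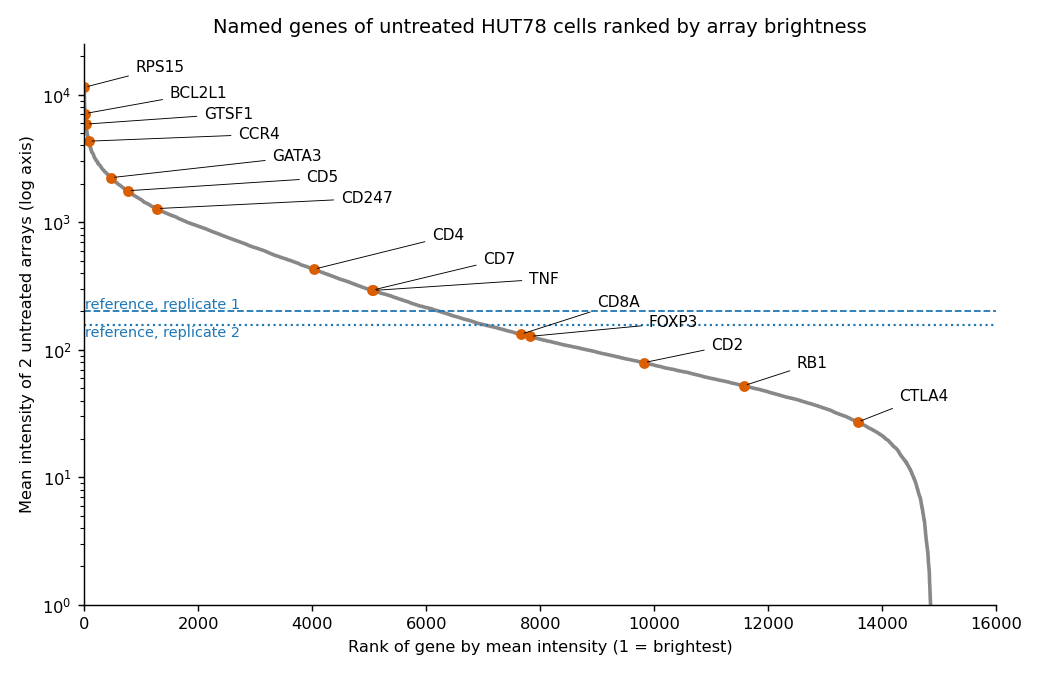
Mean intensity of each named gene on the 2 untreated arrays (vertical log axis) against its rank (horizontal axis, 1 = brightest), with 15 genes marked and the reference level of each array as a blue line; genes with a mean under 1 are not drawn. RPS15, BCL2L1, GTSF1 and CCR4 stand at the top of the curve, CD4, CD7 and TNF above both lines, and CD8A, FOXP3, CD2, RB1 and CTLA4 below them.

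Of the T-cell receptor genes measured, TRAT1, CD247 and CD4 were above the reference and CD8A, CD8B and PTCRA below it. TRAT1, an adaptor that stabilises the receptor complex, read 1502 and 1593 and was bright on both arrays. CD247, the zeta chain that carries the receptor's activation motifs, read 1415 and 1144. CD4 itself read 403 and 452, above the reference on both arrays. CD8A at 131 and 133 and CD8B at 92.8 and 93.9 lay below it on both, as did PTCRA, the receptor alpha chain of thymocytes, at 148 and 108. The count of 3 of 6 is near the 47.8% of protein-coding genes, so the list as a whole did not stand out. The CD3 chains and the receptor constant regions were not analysed here.

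Other surface antigens listed for T cells were mostly above the reference, 16 of 19, of which 7 were bright. Of protein-coding genes 47.8% were above it and 11.5% were bright. The list was not limited to antigens restricted to T cells, so the count is no measure of T-cell identity. CD96, an adhesion receptor of T and NK cells, was the brightest at 2975 and 3334. CD52, the antigen bound by alemtuzumab, read 2207 and 2189, and CD5, a negative regulator of receptor signalling, read 1729 and 1802. These 3 stood far above the reference, and CD52 and CD5 differed little between the arrays. THY1 (CD90) was counted in this list, although in humans it is known from stromal and progenitor cells and not as a general antigen of mature T cells, and it read 1256 and 1366. CD38, an ectoenzyme of activated lymphocytes, read 1176 and 1346.

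The 2 antigens whose loss is typical of Sézary cells were dimmer than CD5 but above the reference. CD7 read 232 and 354 and DPP4, which encodes CD26, read 356 and 465. For CD7 the arrays differed by more than for most surface antigens, and its value on replicate 1 lay close to the reference of 200.5. CD7 was no longer above it when the 99th percentile of the reference genes was used. CD2, an adhesion receptor found on nearly all T cells, lay below the reference at 91.6 and 66.8. The co-stimulatory receptors CD28 (67.2 and 83.00) and CD27 (98.1 and 109.6) were also below it on both arrays.

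**Figure D2:**
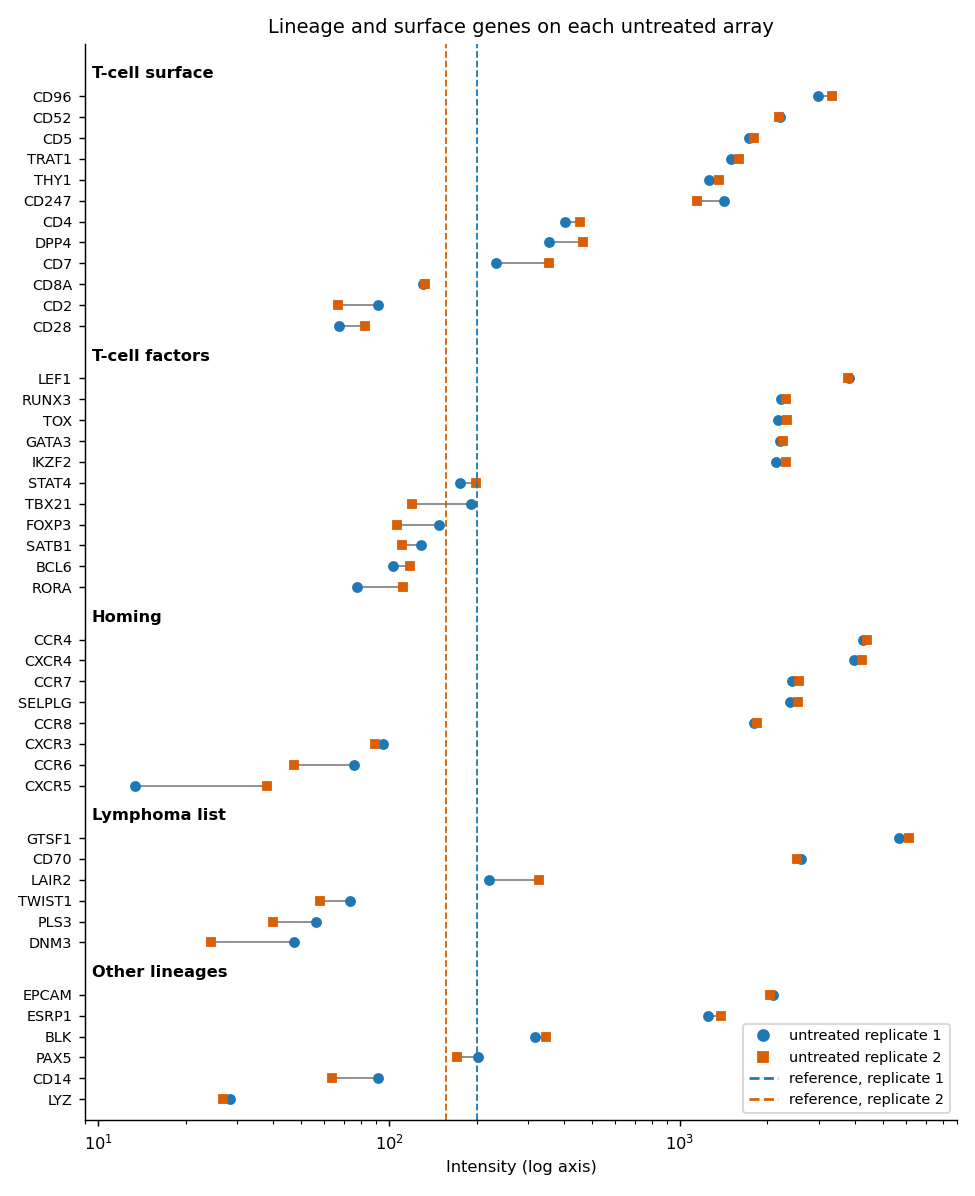
Intensity (horizontal log axis) of 43 lineage, factor, homing, lymphoma-list and other-lineage genes on untreated replicate 1 (blue circles) and replicate 2 (orange squares), with the reference level of each array as a dashed line of the same colour. CCR4, GTSF1, LEF1 and CD96 lie far to the right, LEF1 with near-identical values, while CD2, CD28, TWIST1 and LYZ lie left of both lines.

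Genes that carry the T-cell receptor signal were above the reference in 21 of 22 cases (95.45% against 47.8% of protein-coding genes). ORAI1, the calcium channel subunit, lay on different sides of it (158 and 185). LCP2, the adaptor SLP-76, read 2813 and 2776, and ZAP70, the kinase that binds the zeta chain, read 1708 and 1739. LCK, the kinase that phosphorylates the receptor first, read 1018 and 1141. The adaptor LAT read 774 and 804 and the exchange factor VAV1 read 1076 and 1142. SOS1, a RAS exchange factor, was the brightest of the list at 3003 and 3111. The median of the members' mean intensities was 872. TXK and TEC, kinases of the TEC family, read 605 and 689 and 663 and 729.6, and UBASH3A, a T-cell phosphatase that dampens the signal, read 969 and 998.

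Transcription factors of the T lineage were above the reference in 16 of 32 cases, near the 47.8% of protein-coding genes, while 11 of 32 were bright against 11.5%. A further 10 were at or below the reference and 6 on different sides. GATA3, the factor of T helper 2 cells, read 2213 and 2259. TBX21, its counterpart in T helper 1 cells, read 191 and 120.4, below the reference on both arrays, and RORA read 77.4 and 112. FOXP3, the factor of regulatory T cells, lay below it at 148 and 106, while IKZF2 (Helios), which is also found in regulatory cells, was bright at 2136 and 2308. BCL6, of follicular helper cells, read 103 and 118. MAF, another factor of T helper 2 and follicular cells, was below it at 69.9 and 71.5, so factors tied to the same subset lay on both sides.

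The brightest of this list were AHR, a ligand-activated receptor of environmental compounds, at 3850.0 and 3815, and LEF1, a partner of beta-catenin in naive and immature T cells, at 3808 and 3791. ELF1 (3089.8 and 3814) and ETS1 (2538 and 2620.3) belong to the ETS family, and MYB (2802 and 2897) is a factor of progenitor and leukaemic cells. RUNX3 read 2235 and 2323 and TOX, a factor raised in exhausted and malignant T cells, read 2177 and 2334. These values agreed closely between arrays except for ELF1, whose replicate 2 was higher. SATB1, a chromatin organiser reported to be lost in Sézary cells, lay below the reference at 129 and 111. STAT4, which transmits interleukin 12 signals, lay on different sides of it at 175 and 199.7, as did BCL11B at 189 and 232, KLF2 at 203 and 134 and ZEB1 at 132 and 189.8.

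Genes known as markers of Sézary syndrome were above the reference in 12 of 24 cases, near the 47.8% of protein-coding genes. The list also holds genes whose loss is the marker. CD7 and DPP4 count among the 12 above and SATB1 among those below, so the count is not one of gained markers. GTSF1, a germline gene of the piRNA pathway that is found in malignant T cells, was the brightest at 5658 and 6111, a mean of 5884 ± 320.5 (SD, n = 2). CCR4 read 4249 and 4396, CD70, a ligand of CD27, read 2604 and 2519, and TOX was bright as given above. Some genes used to detect Sézary cells in blood were dim in this line. TWIST1 read 73.3 and 57.9, PLS3 (T-plastin) 56.02 and 40.1, DNM3 (dynamin 3) 47.01 and 24.4 and EPHA4 53.02 and 56.6, all below the reference on both arrays. The inhibitory receptor TIGIT, often found on Sézary cells, read 54.6 and 35.9. The list thus held some of the brightest genes of the line and some at the level of the reference.

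Homing receptors were above the reference in 11 of 24 cases, near the 47.8% of protein-coding genes, and 8 of 24 were bright against 11.5%. The other 13 were at or below it. CCR4, which draws T cells to skin, had a mean of 4322 ± 104 (SD, n = 2), and CXCR4, the receptor of CXCL12, read 3963 and 4232. GPR183, which guides lymphocytes by oxysterols, read 3029 and 3273, and CCR7, the receptor for entry into lymph nodes, read 2429.9 and 2576. CCR8, a receptor of skin-resident and T helper 2 cells, read 1802 and 1847, and SELPLG, which carries the skin-homing epitope CLA, read 2394 and 2557. Together these cover receptors of skin, marrow and lymph nodes. Receptors of T helper 1, 17 and follicular cells were at or below the reference: CXCR3 (95.1 and 89.5), CCR6 (76.1 and 47.01) and CXCR5 (13.4 and 38.2). CCR10, another skin receptor, read 134 and 136, also below it.

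Co-stimulatory and inhibitory receptors were rarely above the reference, 5 of 22 (22.7% against 47.8% of protein-coding genes). These were CD96, SLAMF6 (1396 and 1454), ICOS (1094 and 1153), LAIR1 (504 and 583) and SLAMF1 (348 and 420.2). ICOS, an inducible co-stimulator, stood next to the bright limit, while its relatives CD28 (67.2 and 83.00) and CTLA4 (34.5 and 19.7), which lie beside it in the genome, were below the reference. Other inhibitory receptors and ligands were dim as well, with LAG3 at 58.9 and 119, HAVCR2 (TIM-3) at 68.7 and 90.3, and CD274 (PD-L1) at 35.8 and 34.5. Of these, LAG3 differed most between the arrays.

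Among cytokine receptors 10 of 18 were above the reference (55.6%), near the 47.8% of protein-coding genes. IL9R, the receptor of interleukin 9, was the brightest at 2768 and 2794, and IL7R, the survival receptor of memory T cells, read 1241 and 1427. EPOR, known from red cell precursors, read 832 and 671, and the interferon gamma receptor chain IFNGR1 read 509 and 599.5. IL4R, of the T helper 2 pathway, read 379.8 and 435. IL23R (18.7 and 38.1), OSMR (26.6 and 19.6) and IL17RB (53.9 and 16.1) were at or below the reference. The chains shared by the interleukin 2 family were not analysed here.

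Kinases and factors downstream of these receptors were led by JAK1 at 2040.4 and 2096 and STAT3 at 1978 and 2104, which signal for interleukins 6, 10 and 21 among others. JAK3, the partner of the common gamma chain, read 605 and 757, TYK2 461 and 604, STAT5A 466 and 491 and STAT5B 521 and 528. JAK2 was dimmer and lay on different sides of the reference (154 and 188). Feedback inhibitors divided: CISH, an early target of STAT5, read 603 and 626, whereas SOCS1 (116 and 41.3), SOCS2 (49.1 and 64.8) and SOCS3 (52.4 and 55.7) were below it. In all 10 of 16 were above, against 47.8% of protein-coding genes.

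Few cytokine genes stood out in the untreated cells, with 6 of 28 above the reference (21.4% against 47.8% of protein-coding genes). CCL5, a chemokine of effector T cells, was bright at 3543 and 3393, as was IL32, a cytokine of activated T and NK cells, at 2085 and 2342. IL16, a ligand of CD4, read 866 and 981. TNF read 273 and 310.2 and the CCR4 ligand CCL17 read 322 and 242, both above the reference, and neither exceeded its 99th percentile on both arrays. IL2 (42.1 and 32.1), IL4 (20.4 and 39.2), IL13 (47.9 and 53.4), IL17A (73.2 and 36.2), IL22 (20.4 and 13.2) and IL21 (27.2 and 34.6) all lay below it. The T helper 2 cytokine genes IL4 and IL13 were thus among the dim members.

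**Figure D3:**
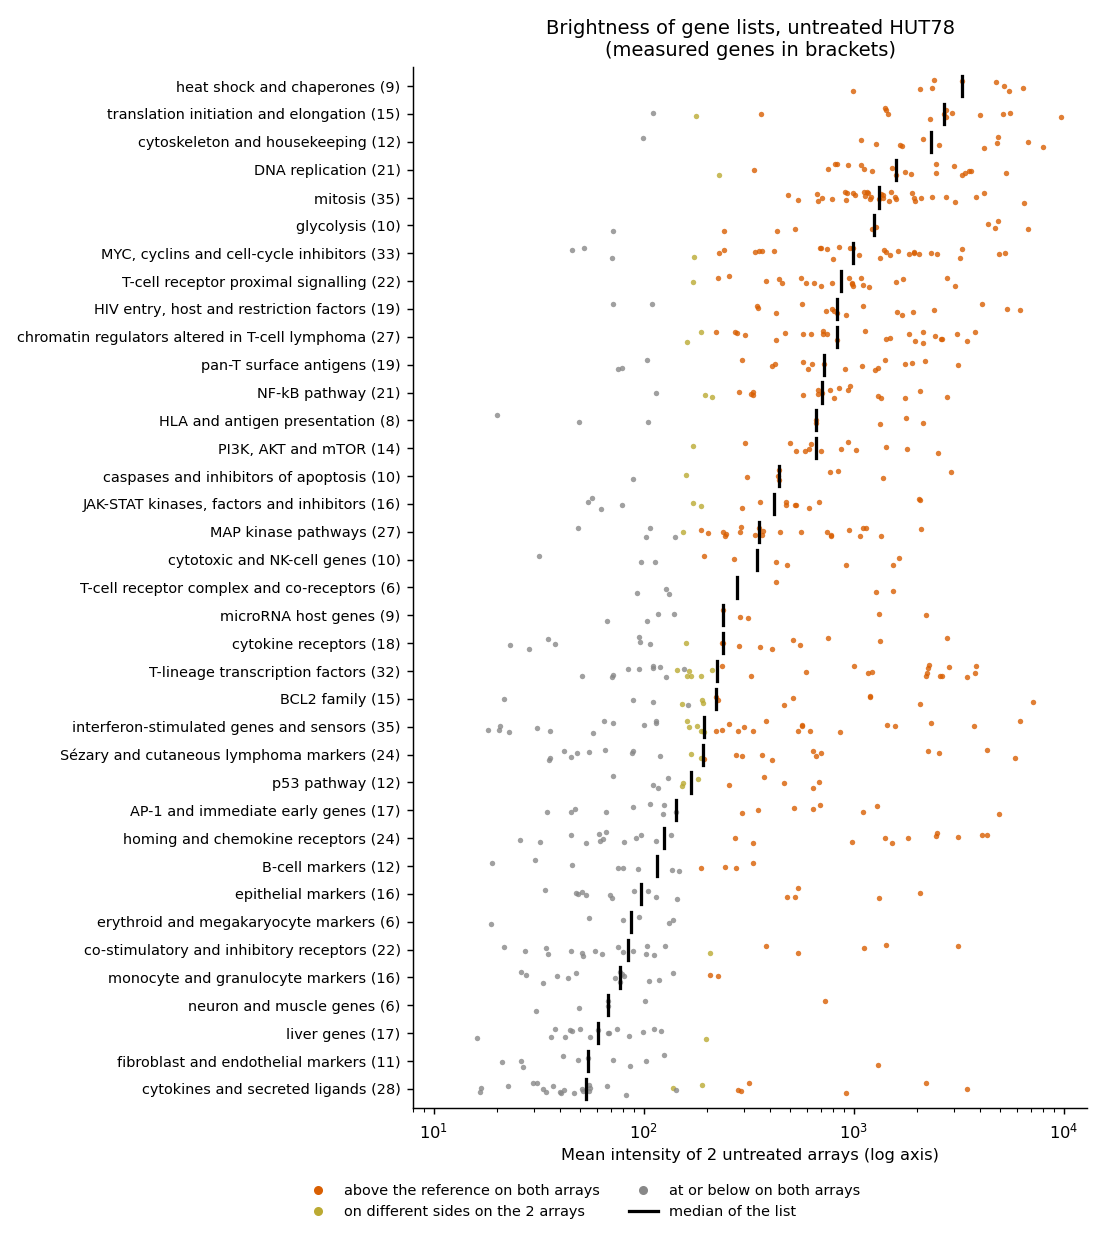
Mean intensity of every measured member (points, horizontal log axis) of the written-out gene lists, ordered by list median (black bar), with the number measured in brackets. Of the 38 lists only the TNF receptor family, with 3 genes measured, is not drawn. Chaperone, translation, cytoskeleton and housekeeping, replication and mitosis genes lie furthest right. Cytokine, liver, fibroblast, endothelial and monocyte genes lie left, with single bright members such as CCL5 and THY1 standing apart.

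NF-κB genes were above the reference in 18 of 21 cases (85.7% against 47.8% of protein-coding genes). REL, a subunit that follows T-cell activation, was the brightest at 2643 and 2930.1, and CYLD, a deubiquitinase that restrains the pathway, read 1989.5 and 2143. TRAF3, an inhibitor of the noncanonical branch, read 1742 and 1762. NFKB1 read 869.5 and 1052, RELA 773 and 932, NFKB2 694 and 718 and RELB 299 and 366, so the noncanonical subunit genes were above the reference too. The kinase gene MAP3K14 (NIK), which drives that branch, lay on different sides of it at 198 and 196.

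MAP kinase genes were above the reference in 22 of 27 cases (81.5% against 47.8% of protein-coding genes), most of them at moderate brightness. With the 99th percentile of the reference genes 13 were. The brightest was MAPKAPK2, the main kinase downstream of p38, at 2105 and 2071, with MAPKAPK5 at 1328 and 1368 and MAPKAPK3 at 1097 and 1202. MAP2K1, of the ERK branch, read 1042 and 1109.6, and MAPK3, which encodes ERK1, read 755 and 806. Of the p38 genes 3 were measured. MAPK13 (p38δ) read 217 and 270.4, MAPK11 (p38β) 209.7 and 193 and MAPK12 (p38γ), the target named for the series' compound, 109 and 107. MAPK12 lay below the reference on both arrays, and MAPK11 and MAPK13 fell below the 99th percentile. MAPK14 (p38α) was not analysed here.

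Genes of PI3K and mTOR signalling were above the reference in 13 of 14 cases (92.9% against 47.8% of protein-coding genes). FOXO3 lay on different sides (168 and 176). EIF4EBP2, a repressor of translation controlled by mTOR, read 2529 and 2538, and DDIT4, an inhibitor of mTOR induced by stress, read 1765 and 1834. AKT2 read 995 and 1049, AKT1 709 and 689.8 and MTOR 929.8 and 961. The other probe set of AKT1 had a mean of 85.5. Immediate early genes were above the reference in 8 of 17 cases, near the 47.8% of protein-coding genes. MYC read 4886 and 4984, JUND 1246 and 1348, KLF6 1024 and 1196, IER3 672 and 717 and JUNB 609 and 676, and IER5, KLF10 and IER2 were above it too. Of 11 probe sets of IER3, 6 were above the reference. FOS (139.7 and 109), JUN (88.7 and 127), EGR1 (87.8 and 90.03) and ATF3 (30.02 and 39.3) were among the 9 at or below it.

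Cell-cycle genes were among the brightest groups. Of 33 measured genes of the MYC network, cyclins and inhibitors, 29 were above the reference and 15 were bright. Over all protein-coding genes 47.8% were above it and 11.5% were bright. CCND2, the D-type cyclin of lymphocytes, read 5261 and 5267 and had nearly the same value on both arrays, while CCND1 read 496 and 336. CDK4, a partner of the D cyclins, read 3135 and 3448, but its relative CDK6 lay below the reference at 72.3 and 68.4. All 35 measured genes of mitosis were above the reference, and 20 were bright, among them TOP2A, the kinase gene PLK1 (4105 and 4281) and the proliferation marker MKI67 (3812 and 3815). DNA replication genes were above in 20 of 21 cases, led by the sliding clamp PCNA (5139 and 5458), the helicase subunit MCM3 (3511 and 3774) and RRM1 (3459.5 and 3649) of nucleotide reduction.

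The brakes RB1 and CDKN2A were an exception. RB1, the retinoblastoma gene that blocks entry into S phase, read 57.2 and 47.2, and CDKN2A, which encodes the inhibitor p16, read 56.5 and 34.5. The related genes RBL1 (1886 and 2232) and RBL2 (976 and 951) and the partner gene TFDP1 (2318 and 2365) were well above the reference. In RefSeq gene order the neighbours of RB1 were above it: ITM2B on one side read 1907 and 2168 and LPAR6, which lies inside an intron of RB1, read 603 and 678. MED4, beyond ITM2B, read 657 and 617, while CYSLTR2, a leukotriene receptor gene further along, read 34.2 and 61.3.

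Around CDKN2A the measured neighbours were dim as well. MTAP, the next gene, which encodes a housekeeping enzyme of methionine salvage, read 51.8 and 34.3, close to CDKN2A on each array. KLHL9 at 118 and 134, DMRTA1 at 63.9 and 50.9 and TUSC1 at 81.7 and 45.9 were also at or below the reference. The next genes outwards on the TUSC1 side were above it, with CAAP1 at 368 and 422, PLAA at 714 and 831 and IFT74 at 538 and 632. Further out, LRRC19 (16.9 and 17.6), EQTN (54.2 and 27.3) and MOB3B (69.5 and 72.4) were below it again. Neighbours were looked at for 7 genes (RB1, CDKN2A, CD28, CDK6, SATB1, ZEB1 and EPCAM), and those given were chosen after their values had been seen.

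Genes of biomass production were bright as groups, set against 47.8% of protein-coding genes above the reference and 11.5% bright. Of 52 cytosolic ribosomal protein genes 48 were above the reference and 37 were bright, with a median mean intensity of 2314. The 1 gene at or below it was RPL10L, a copy of RPL10 used in testis (63.6 and 32.2). Mitochondrial ribosomal proteins had 71 of 73 above and 24 bright, led by MRPL3 (3392 and 3487). Chaperones had 9 of 9 above, among them the mitochondrial HSPA9 (6340.2 and 6434) and HSPD1 (5516 and 5476) and calreticulin, CALR (5377 and 4979.5). Of translation factors 13 of 15 were above the reference and 12 bright, and of cytoskeletal and housekeeping genes 11 of 12 and 10. Glycolysis had 9 of 10 above, with GAPDH at 6392 and 7096, PGK1 at 4663 and 4819 and LDHA, lactate dehydrogenase, at 4165 and 4593. HK3, a hexokinase of myeloid cells, was the exception at 57.8 and 85.8. Nuclear genes of oxidative phosphorylation had 17 of 24 above, and the 7 others include muscle and testis forms such as COX7A1 (49.9 and 22.9) and COX8C (43.9 and 39.1).

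Among apoptosis genes the survival gene BCL2L1 stood far above its relatives on the array, with a mean of 7118 ± 197 (SD, n = 2). MCL1 read 1204 and 1182 and BCL2, the founding member, 458 and 567. Of the pro-apoptotic members BCL2L11, which encodes BIM, was bright at 2049 and 2092, and BID read 1236 and 1162. BAX (143 and 162) and BAK1 (146 and 238), the pore formers, each lay on different sides of the reference. BBC3 (PUMA), a p53 target, was below it at 107 and 114. In all 8 of 15 were above, near the 47.8% of protein-coding genes. BIRC6, a large inhibitor of apoptosis, read 2822 and 2972. Of 12 measured p53 pathway genes 5 were above the reference, near the 47.8% of protein-coding genes, and none was bright, against 11.5%. Without replicate 1 the number above was 8. SESN1 read 594 and 778 and the p53 inhibitor gene MDM4 619.8 and 663, whereas SESN2 (105 and 128) and RRM2B (114 and 147) were below it.

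Of the interferon-stimulated genes 17 of 35 were above the reference, which is near the 47.8% of protein-coding genes, 12 were at or below it and 6 on different sides. The membrane proteins IFITM1 (5982 and 6377) and IFITM2 (3664 and 3823) were among the brightest genes, whereas IFITM3 (95.3 and 105.9) was below the reference. XAF1, an interferon-induced pro-apoptotic gene, read 2275 and 2394. RSAD2 (viperin) read 802 and 919.7 and ISG15 328 and 335. IFIT1 (28.9 and 12.2), IFIT2 (29.1 and 42.4), IFIT3 (35.6 and 26.7) and IFI44L (18.2 and 17.9), which are usually among the genes most raised by type I interferon, were all below the reference. The sensor genes CGAS (613 and 624) and STING1 (491 and 643) were above it.

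HUT78 and its subclone H9 are used as hosts for HIV. Host genes of that virus were mostly above the reference, 17 of 19 (89.5% against 47.8% of protein-coding genes). The co-receptor gene CXCR4 was bright, and CD4 was above the reference. Restriction factors included SAMHD1, which depletes nucleotides, at 2257 and 2557, SERINC3 at 5086 and 5643 and SERINC5 at 768 and 902, and BST2 (tetherin) at 506 and 633. TRIM5 read 325 and 367. MX2 (70.01 and 73.4) and TRIM22 (100.1 and 119.6), both interferon-induced, were below it.

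Some genes of killer lymphocytes were above the reference, 7 of 10 (70% against 47.8% of protein-coding genes), and 5 with its 99th percentile. NCR3, the NK receptor NKp30, read 1556 and 1717, CST7, an inhibitor of granule proteases, 1504 and 1561, and PRF1, perforin, 853 and 979. GNLY (granulysin) read 409 and 440.5 and NKG7 269.6 and 271. GZMK (32.6 and 30.9), GZMM (139 and 88.8) and the NK marker NCAM1 (96.2 and 98.6) were below it. In the list of antigen presentation, of which 8 genes were measured, B2M, the light chain of HLA class I, read 2032 and 2248 and the peptidase ERAP1 1707 and 1828. CD1D, which presents lipids to NKT cells, read 722 and 604, while CD1A (127 and 84.00) and CD1B (16.6 and 23.4) were below the reference. The HLA heavy chain genes were not analysed here.

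Chromatin regulators that are often altered in T-cell lymphoma were nearly all above the reference, 25 of 27, with 12 bright. The share above was 92.6% against 47.8% of protein-coding genes, of which 11.5% were bright. SUZ12 (3661 and 3946) and EZH2 (2061 and 2218), of the Polycomb complex, and the maintenance methyltransferase DNMT1 (3075 and 3125) were bright. HDAC1, a target of deacetylase inhibitors used in this disease, read 3334 and 3616. TET2 read 541 and 602, ARID1A 1154 and 1111 and DNMT3A 224 and 219. HDAC6 (168 and 207) and ZEB1 (132 and 189.8) lay on different sides.

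Markers of other cell types checked the label. Liver genes had 0 of 17 above the reference, and erythroid and megakaryocyte genes 0 of 6, against 47.8% of protein-coding genes. Monocyte and granulocyte markers had 2 of 16 above, MARCO (280.2 and 174) and CSF1R (235 and 178), and 0 with the 99th percentile. Their defining genes CD14 (91.5 and 63.5), LYZ (28.4 and 26.9) and MPO (32.5 and 19.5) were below it. Mean intensities of the list ran from 25.99 for MPO to 227 for MARCO. None of the genes of these 3 lists was bright. The fibroblast and endothelial list had 1 of 11 above the reference, THY1, which was bright. The defining CD3 chains were not analysed here, so the T-cell label was checked through other T-cell genes. CD4, CD5, CD247 and the kinases above were above the reference. CD2, found on nearly all T cells, was below it on both arrays (91.6 and 66.8), and CD7 (232 and 354) was close to it on replicate 1.

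B-cell markers had 4 of 12 above the reference (33.3% against 47.8% of protein-coding genes) and 0 with its 99th percentile. The 4 were BLK, a kinase of the B-cell receptor (318 and 347), TCL1A (332 and 218), CD22 (300.4 and 189) and PAX5 (203 and 171). EBF1 (162 and 112), FCRL1 (96.3 and 92.4) and CR2 (32.7 and 27.8) were below it. In the epithelial list 5 of 16 were above the reference (31.25% against 47.8% of protein-coding genes) and 2 were bright. EPCAM, an epithelial adhesion molecule, read 2087 and 2036, and ESRP1, an epithelial splicing regulator, read 1249 and 1384. CLDN3, a tight junction protein, read 535 and 424, KRT10, a keratin of the upper epidermis, 578 and 513, and KRT18 read 576 and 478, where its other probe set had a mean of 172. The other 11 were at or below the reference, such as KRT8 (90.9 and 119), KRT19 (58.6 and 42.8), DSP (55.2 and 40.2) and CLDN4 (39.8 and 27.7). All 5 stayed above with the 99th percentile of the reference genes. TTN, the giant muscle protein titin, was the 1 gene of 6 neuron and muscle genes above the reference, at 667 and 798.

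Noncoding genes were dimmer than protein-coding ones. Of 11916 protein-coding genes 47.8% were above the reference, with a median mean intensity of 192. The share was 13.5% of 1398 long noncoding RNAs and 6.25% of 1072 microRNA genes, whose median was 30.3. Small Cajal body RNAs, which guide the modification of spliceosomal RNAs, were brighter, with 13 of 23 above, led by SCARNA12 at 3235 and 3581, SCARNA22 at 2251 and 2488 and SCARNA10 at 1904 and 1976. RMRP, the RNA of the RNase MRP enzyme, read 5986 and 5999. Of 458 long intergenic noncoding RNAs 46 were above the reference, the brightest being LINC00987 at 4039 and 3800.5 and LINC01347 at 3609 and 3394.

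MicroRNA genes are shown because the brightest include several known from lymphocytes. MIR4737 was first at 2368 and 2520.5, then MIR5047 at 1049.8 and 1094 and MIR181B1, of the family that tunes T-cell receptor sensitivity, at 1041 and 1096. MIR182 read 768 and 519 and MIR146A, a feedback inhibitor of NF-κB signalling, 566 and 585. The probes do not separate precursor from mature RNA or from an overlapping transcript. Of the 12 brightest microRNA genes 9 lie within another annotated gene on either strand: MIR4737 in HEATR6 (526 and 573), MIR5047 in DDX5 (5021 and 5222) and MIR181B1 in its host MIR181A1HG (2159 and 2290.5). Strands were not compared. On the same strand, the signal of a microRNA gene cannot be told apart from that of the gene around it. The gene around was not always bright: OSBP2, around MIR3200 (525 and 494), had a mean of 82.7. TLR6, around MIR574 (844 and 615), had a mean of 24.75, and FAM114A1, also around MIR574, was not measured. Of 9 measured microRNA host genes 5 were above the reference (55.6% against 40.8% of all named genes). Among them was MIR17HG, of the MYC-driven cluster, at 299 and 330.1. These microRNAs were picked for display after their values had been seen. The mature sequences of 5 of these genes follow, 5′ to 3′ from RefSeq on GRCh38.p14, with the seed (bases 2 to 8) in capitals. The 17 mature sequences of the 12 genes have 17 different seeds, so none share one.
hsa-miR-4737 (chr17:60043077-60043096, minus strand): aUGCGAGGaugcugacagug
hsa-miR-5047 (chr17:64501230-64501250, minus strand): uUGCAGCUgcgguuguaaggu
hsa-miR-181b-5p (chr1:198858925-198858947, minus strand): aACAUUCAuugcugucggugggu
hsa-miR-182-5p (chr7:129770447-129770470, minus strand): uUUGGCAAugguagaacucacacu
hsa-miR-146a-5p (chr5:160485372-160485393, plus strand): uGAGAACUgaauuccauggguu

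Promoter sequence, which the ranking did not use, differed along the order of brightness. RefSeq promoters of 300 bases (250 before and 50 after the start, GRCh38.p14) were matched to 9707 of 11916 protein-coding genes, which were divided into 10 bins of equal size by mean intensity. The median ratio of observed to expected CpG was 0.41 in the dimmest bin and 0.88 in the brightest, against 0.79 over all promoters. The motif CCGGAAG, the core that ETS factors recognise, was found on either strand in 5.36% of the dimmest bin and 23.6% of the brightest, against 15.6% of all. The share levelled off from the seventh bin, at 23.8%. TATAAA went the other way, from 19.9% in the dimmest bin to 3.81% in the ninth, and was 6.59% in the brightest, against 8.19% of all.

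In all 12 motifs were searched on both strands, and CCGGAAG and TATAAA are featured after the shares of all had been seen. GGGCGG, the core bound by SP1, was in 39.0% of the dimmest and 71.0% of the brightest bin, against 62.9% of all. CACGTG, the E-box bound by MYC and MAX, was in 7.42% and 11.8%, against 9.10%. The motif AGATAA, which factors like GATA3 recognise, was in 11.6% and 3.91%, against 6.73%. CCAAT was in 36.8% and 40.6%, against 36.2%. Of longer motifs, TGACGTCA (CREB) was in 1.24% and 3.81%, against 2.72%, and the palindromic consensus of NRF1 in 0.722% and 3.40%, against 1.99%. ATGACTCA (AP-1) was in 0.825% and 0.412%, against 0.628%, and a palindromic NF-κB consensus in 0.103% and 0.206%, against 0.144%. CTTTTC was in 23.7% and 21.1%, against 18.8%, and TTCTTT in 24.0% and 15.0%, against 15.9%. Median GC content was 54.3% in the dimmest bin and 64.3% in the brightest, with the highest median, 66.0%, in the sixth. GC content moved with these shares, and its part in them was not tested. A match says only that the letters occur.

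**Figure D4:**
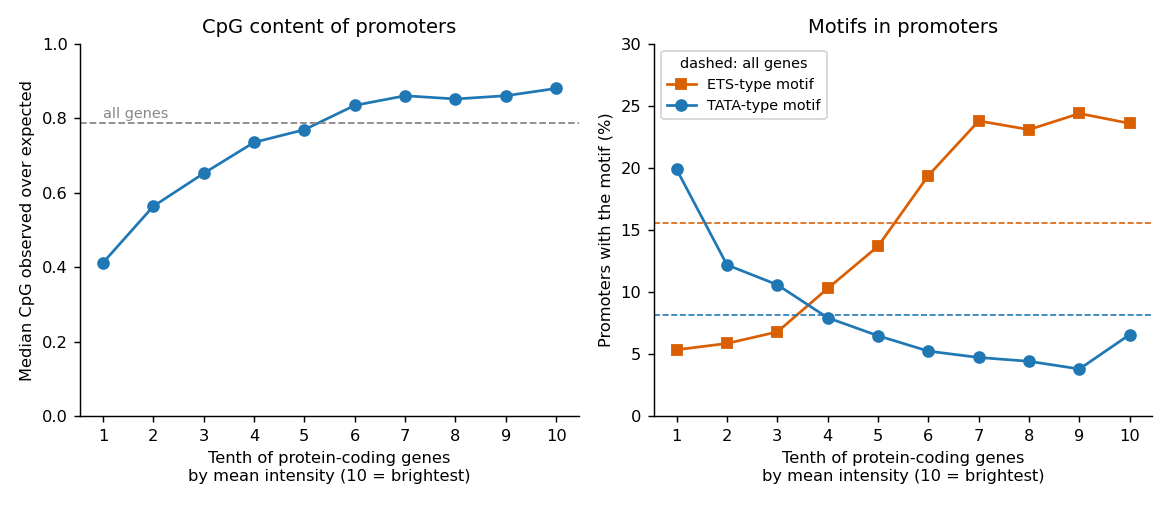
Left, median ratio of observed to expected CpG, and right, percent of promoters with an ETS-type (CCGGAAG) or TATA-type (TATAAA) motif, in 10 bins of protein-coding genes by mean intensity (horizontal axis, 10 = brightest); dashed lines are the values over all 9707 genes. The CpG ratio goes from 0.41 to 0.88, and the motif shares cross between the third and the fourth bin.

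Promoters of single bright genes are shown as the 250 bases before the start, 5′ to 3′ on the gene's strand. CCGGAAG (or its complement) and TATAAA (or its complement) are in capitals. No dim gene is shown, so they do not display the contrast between bins. RPS21 was the brightest gene with the ETS motif in this window and EEF2 the brightest with TATAAA. GTSF1 and CCR4 are the brightest genes of the lymphoma list and were chosen after their values had been seen. RPS21 holds 2 copies of the motif and GTSF1 has 1 close to its start. CCR4 has none of either motif, and its GC content was 39.6%. The ratio of observed to expected CpG was 0.96 for RPS21, 1.25 for EEF2, 0.33 for GTSF1 and 0.52 for CCR4, so the 2 lymphoma genes had CpG-poor promoters although they were bright.
RPS21, chr20:62386853-62387102, plus strand: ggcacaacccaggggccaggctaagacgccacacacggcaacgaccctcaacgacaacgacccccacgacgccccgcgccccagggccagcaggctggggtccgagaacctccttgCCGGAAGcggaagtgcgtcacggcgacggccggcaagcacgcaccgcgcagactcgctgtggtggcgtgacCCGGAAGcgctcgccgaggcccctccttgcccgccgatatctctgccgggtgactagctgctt
EEF2, chr19:3985464-3985713, minus strand: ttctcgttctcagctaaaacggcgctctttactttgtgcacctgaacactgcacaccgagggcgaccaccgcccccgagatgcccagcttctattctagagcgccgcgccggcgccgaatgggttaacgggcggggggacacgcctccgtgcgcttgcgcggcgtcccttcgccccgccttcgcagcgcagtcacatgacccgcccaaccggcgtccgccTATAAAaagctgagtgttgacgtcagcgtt
GTSF1, chr12:54473603-54473852, minus strand: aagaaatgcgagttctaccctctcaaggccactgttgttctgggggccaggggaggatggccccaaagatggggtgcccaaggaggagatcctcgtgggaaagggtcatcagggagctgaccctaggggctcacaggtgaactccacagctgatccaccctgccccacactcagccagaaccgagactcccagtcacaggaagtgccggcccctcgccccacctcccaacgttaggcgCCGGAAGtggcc
CCR4, chr3:32951394-32951643, plus strand: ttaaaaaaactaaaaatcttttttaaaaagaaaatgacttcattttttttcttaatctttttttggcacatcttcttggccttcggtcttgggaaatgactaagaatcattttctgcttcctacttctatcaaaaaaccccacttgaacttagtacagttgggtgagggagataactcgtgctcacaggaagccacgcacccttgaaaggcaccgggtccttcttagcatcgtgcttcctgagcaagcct

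The 2 arrays differed more for dim than for bright genes. On the scale of log2(intensity + 16) the median absolute difference over all genes was 0.22. It was 0.26 in the dimmest of 10 bins, 0.29 in the fifth and 0.09 in the brightest. Replicate 2 had the wider range: among the brightest bin 81.5% of genes were higher on it, in the ninth 87.6%, and in the fourth 37.4%. The median signed difference, replicate 2 minus replicate 1, was 0.19 in the eighth bin and -0.13 in the fourth. At least 2-fold differences were found for 68 genes, of which 1 was above the reference on both arrays, MSH5-SAPCD1 (359.9 and 169.6).

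Genes with the largest differences among those above the reference were mostly higher on replicate 1 and near the limit. SIM1, a neural transcription factor, read 358 and 179.7, and LRRN1, a neuronal membrane protein, 357 and 197. SOHLH1, a germ-cell factor, read 292 and 161, and VTN, the liver protein vitronectin, 339 and 191. In the other direction were RELCH at 241 and 412 and AFAP1 at 257 and 438. Bright genes such as LEF1 (3808 and 3791) differed far less relative to their level.

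**Figure D5:**
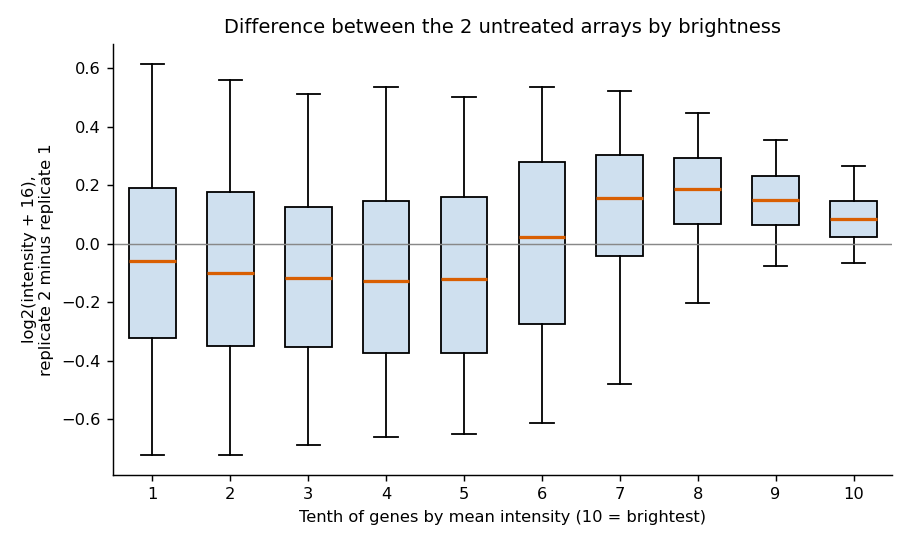
Difference in log2(intensity + 16), replicate 2 minus replicate 1 (vertical axis), in 10 bins of genes by mean intensity (horizontal axis, 10 = brightest). Boxes span the middle quartiles with the median in orange, whiskers run from the 5th to the 95th percentile, and the medians go from -0.13 in the fourth bin to 0.19 in the eighth while the boxes narrow towards the brightest.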

How the data were processed

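Total RNA of HUT78 cells was labelled with the Affymetrix whole-transcript sense target assay, per the labels' protocols. Each probe set has 1 deposited intensity on a linear scale, made by the authors with Affymetrix Expression Console per the submitters' processing notes. The sources used here do not give its version, summarisation, background correction or normalization. Values of untreated replicates 1 and 2 were used as deposited, with no further scaling.

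Of 53617 probe sets, 16098 had 1 gene symbol in the platform annotation, 0 had several and 37519 had none there. All 14884 symbols matched RefSeq (GRCh38.p14) by gene identifier. Where a gene had more than 1 probe set (779 genes), the brightest by mean of the untreated arrays was kept, and for 231 of them the probe sets lay on both sides of the reference. Among genes of the lists this held for 11: AKT1, EIF4B, FADD, IER3, KRT18, MIR4435-2HG, MXD3, PDPK1, TAB1, TET1 and TRIB2.

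Olfactory receptor genes were to be the reference, but 1 was named here, so 84 keratin-associated protein and beta-defensin genes, at first the second choice, replaced them once the values were seen. At that stage the name patterns of 5 lists were also tightened and a list of microRNA host genes was added. Named genes were the brightest and dimmest members of each list, further members picked freely, the 20 brightest genes, the largest array differences and the genes next to the reference. The members and lists were chosen with earlier results of these data known. Of 1082 genes in the 38 written-out lists, 622 were measured. The 2 arrays limit the precision. Python 3.11.15, numpy 2.4.6, pandas 2.3.3 and matplotlib 3.10.9 were used.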

Additional observations from a re-analysis of the deposited data

How the results depend on the processing

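No paired analysis was possible because no groups were compared. The number of genes above the reference was 6077 as reported and stayed within 1.5 times of this, from 4609 to 7972, with the 90th or 99th percentile, liver, neuron and muscle genes as reference (added after the data were seen), averaging all probe sets of a gene, the mean of the arrays, or either array alone (6975 without replicate 1 and 6184 without replicate 2). With the single olfactory receptor gene as reference it was 11488, and 15 of 34 lists moved by over 1.5 times. Quantile normalization could hardly change these counts, since they rest mainly on ranks within an array, and it moved 0 of 34 lists. Bright genes numbered 1411 to 1489. Of 53 genes examined singly, 5 came above the reference with the 90th percentile (CD8A, TBX21, FOXP3, SATB1 and STAT4), 5 came below it with the 99th (CD7, TNF, BLK, MAPK11 and MAPK13), 11 came above it with the olfactory receptor gene, and STAT4 came above it with the mean of the arrays or without replicate 1. Of the lists, the 90th percentile moved p53 genes from 5 to 8, monocyte and granulocyte genes from 2 to 4, fibroblast and endothelial genes from 1 to 2 and liver genes from 0 to 2. The 99th moved MAP kinase genes from 22 to 13, B-cell genes from 4 to 0, monocyte and granulocyte genes from 2 to 0 and microRNA host genes from 5 to 2. The liver, neuron and muscle reference moved B-cell genes from 4 to 2, monocyte and granulocyte genes from 2 to 0 and liver genes from 0 to 1. Without replicate 1, p53 genes went from 5 to 8 and liver genes from 0 to 1, the latter also with the mean of the arrays. The median difference between the arrays was 0.16 to 0.25 over its alternatives, and the share of the brightest promoters with CCGGAAG was 20.9% in the 250 bases before the start. Genes near the reference could not be placed firmly.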

Other observations

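Probe sets without a symbol in the annotation used were not ranked. Of these 37519, 7503 were above the reference on both arrays, and 48 had a mean intensity above that of RPS15, the brightest named gene, with a highest mean of 18616. The highest signals of the line were therefore not named here.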
